A study of Mus musculus with 9 samples.

Results

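The genes described here encode the classical axon guidance ligands and receptors: semaphorins and plexins, Slits and Robo receptors, ephrins and Eph receptors, and netrins with their Unc5 receptors. They were chosen by symbol alone, as every gene whose symbol begins like those of these families, and 58 of the 14011 genes in the deposited table met the rule. The 58 gene models carry 57 symbols, because *Efna5* is listed as 2 models. By family there were 19 semaphorins, 9 plexins, 2 Slits, 3 Robo receptors, 5 EphA receptors, 5 EphB receptors, 5 ephrin-A models, 3 ephrin-B genes, 4 Unc5 receptors and 3 netrins. Another 10 symbols of the annotation that met the rule were not in the table, namely *Efna3*, *Epha5*, *Epha6*, *Epha8*, *Epha10*, *Ntn5*, *Robo3*, *Sema4f*, *Slit1* and *Unc5cl*.

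Guidance molecules were named for steering growing axons, and the same molecules steer endothelial, neural crest and muscle cells in the embryo. Class 3 semaphorins and Slits are secreted, most other semaphorins and the ephrins are held at the cell surface, and their receptors signal to the cytoskeleton through small GTPases. In the heart, semaphorin 3C and its plexin receptors take part in septation of the outflow tract, Slit and Robo proteins in the formation of the caval veins, septa and valves, and ephrin-B2 with EphB4 in the separation of arteries from veins.

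Polyadenylated RNA was sequenced from hearts of E10.5 mouse embryos of mixed strain background, in 3 libraries per genotype, and each library came from a pool of 6 hearts. *Ctcf* encodes a zinc finger protein that binds DNA and shapes chromatin loops, and the comparison asks what its removal does to expression. Homozygotes carried *Ctcf* fl/fl with *Nkx2.5-Cre*/+ and heterozygotes carried *Ctcf* fl/+ with *Nkx2.5-Cre*/+. Controls had no Cre and are *Ctcf* fl/fl by the labels but *Ctcf* fl/+ in the study's own text. All groups thus carried at least 1 floxed allele, and a difference from controls includes the presence of the driver, whereas homozygotes and heterozygotes both had it. The driver recombines in precursors of the heart muscle and not in every cell of the organ, so the pools mixed cells with and without the deletion. Fewer cells of a type and less RNA per cell cannot be told apart in such pools, and the p-values reflect the spread between 3 pools per genotype.

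Values are the authors' normalized values, in which 1 read was worth 0.0901 to 0.231, and library totals ranged from 4294537 to 11629365 reads. *Ctcf* itself stood at 121 to 122 in controls, 94.2 to 101 in heterozygotes and 79.6 to 84.7 in homozygotes, without overlap between the groups. Among markers of other cell types, 6 of 6 erythroid genes were called higher in homozygotes than in controls, with a summed value of 31721 to 46209 in controls and 56684 to 74974 in homozygotes. Of the epicardial markers 4 of 6 were called higher (sum 411 to 473 in controls and 572 to 639 in homozygotes), and of the neuronal markers 2 of the 6 measured (34.8 to 40.5 and 51.6 to 54.2). Called lower were 2 of 8 cardiomyocyte markers (11865 to 14536 and 9859 to 12928), 2 of 11 endothelial markers with 1 higher (1119 to 1255 and 977 to 1166) and 3 of 7 markers of cushion mesenchyme (750 to 781 and 622 to 709). Of 5 macrophage markers measured, 1 was called lower (33.3 to 38.8 and 15.3 to 33.6), and the 4 markers of liver and endoderm, none of them called, ranged in sum from 56.6 to 774 in controls, from 4.84 to 13.8 in heterozygotes and from 5.92 to 70.2 in homozygotes. Control replicate 1 stood apart in these genes, with *Afp* at 595 against 47.6 and 49.2 in the other controls. The neural crest regulators *Sox10*, *Foxd3*, *Tfap2a* and *Tfap2b* were not in the table. Over all genes 8.03% were called lower and 7.19% higher against controls. The part of these shifts in the results that follow was not tested.

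In homozygotes the guidance genes as a group lay below controls. With limma's adjusted p under 0.05 as the threshold, 17 members fell and 1 rose, so that 31% of the members were called against 15.2% of all 14011 genes. Without control replicate 3 the count was 7, all lower, or 12.1% of the members against 7.49% of all genes, and without control replicate 1 it was 12, all lower, or 20.7% against 11.5%. Among all genes 8.03% were called lower and 7.19% higher, while among the members the shares were 29.3% and 1.72%. At an unadjusted p under 0.05 there were 29 members, or 50% against 29.6% of all genes. The median log2 fold change of the members, on the log2(value + 0.5) scale, was -0.26, and 44 of 58 lay below 0, while the median over all genes was -0.0011. In 21 members all homozygote libraries lay below all control libraries, which is 36.2% of the members and compares with 16.5% of all genes. The reverse order was seen in 3 members, or 5.17%, against 16.6% of all genes.

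Against heterozygotes, which share the driver, 13 members fell and 1 rose in homozygotes, or 24.1% of the members against 13.6% of all genes. Of all genes 6.7% were called lower and 6.87% higher in this comparison. The count was 8 without heterozygote replicate 2 (13.8% of the members against 8.97% of all genes) and 9 without homozygote replicate 3 (15.5% against 7.3%). Markers of other cell types moved here too, with 6 of 6 erythroid markers (sum 25512 to 43162 in heterozygotes), 4 of 6 epicardial (439 to 464) and 2 of 6 neuronal markers (34.8 to 48.3) called higher. Called lower were 4 of 8 cardiomyocyte (13536 to 16447), 1 of 11 endothelial (1111 to 1146), 2 of 7 cushion (723 to 735) and 1 of 5 macrophage markers (23.7 to 24.7), and the part of these shifts was not tested either. The median of the members was -0.23, and 17 members (29.3%, against 15.5% of all genes) had every homozygote library below every heterozygote library. The homozygote libraries are shared between both comparisons, and 12 members were called in both, 6 against controls only and 2 against heterozygotes only. Ligands and receptors both contributed: of 32 ligand models 7 fell and 1 rose against controls, and of 26 receptor genes 10 fell and none rose, beside 8.03% of all genes called lower and 7.19% called higher.

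**Figure D1:**
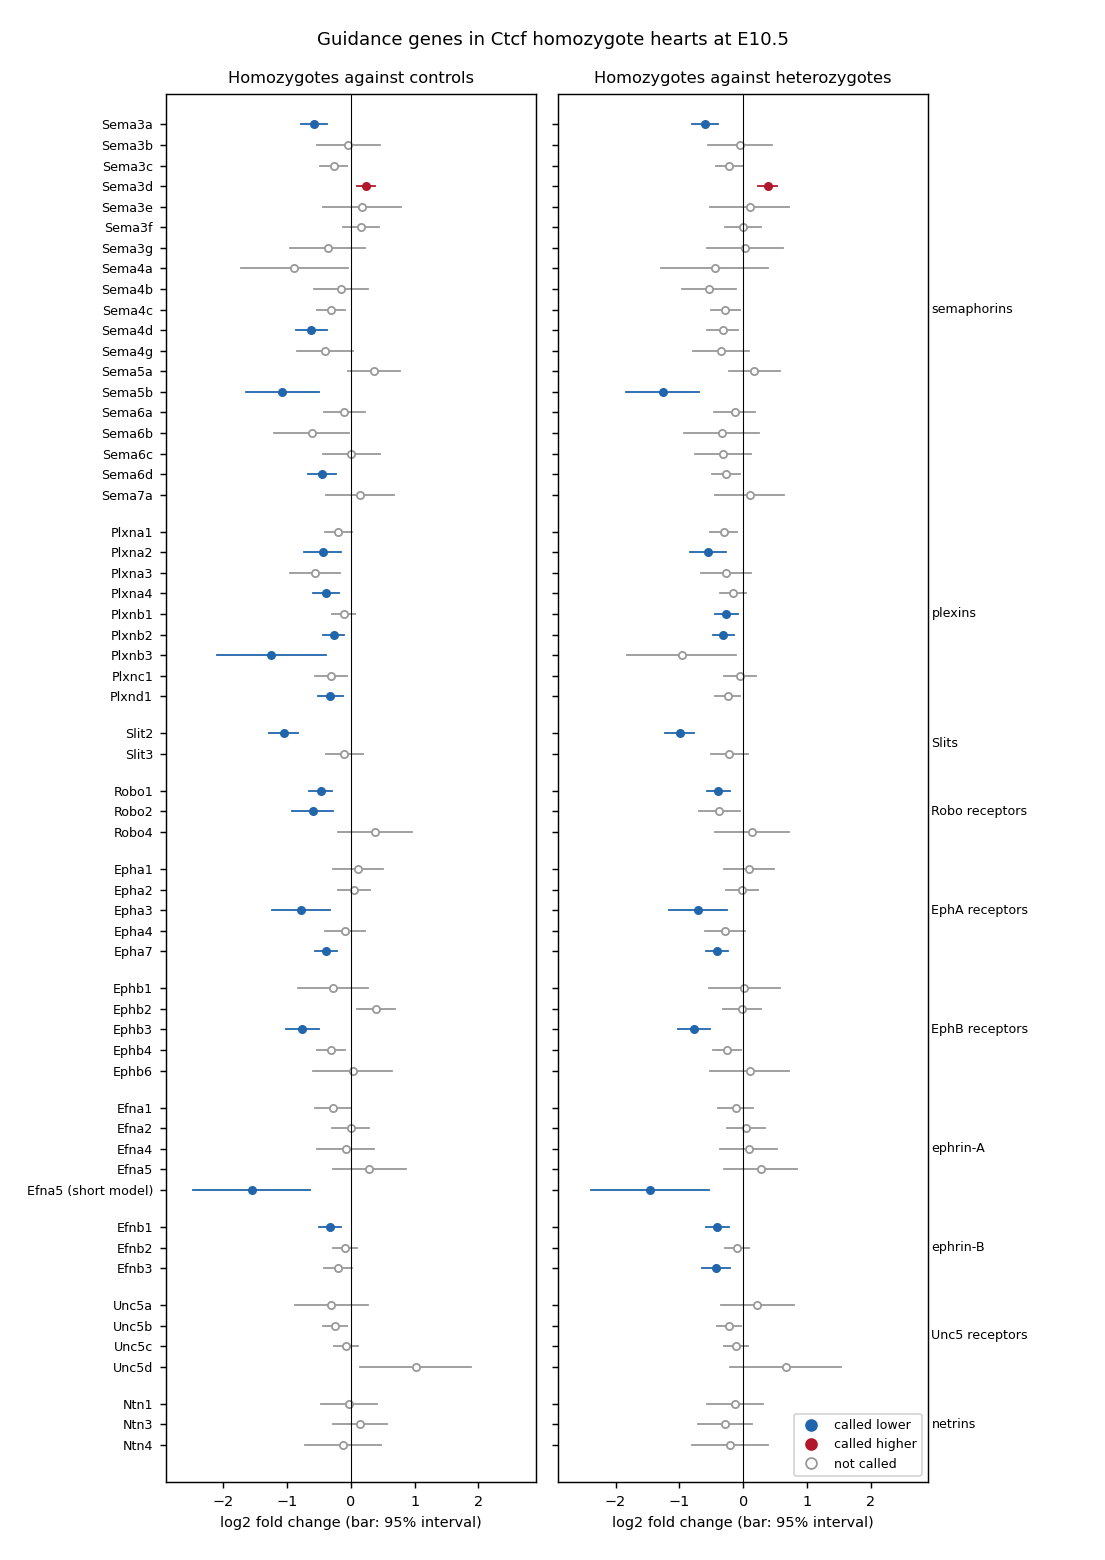
Log2 fold changes of the 58 guidance genes in homozygotes against controls (left) and against heterozygotes (right), grouped by family, with 95% intervals from limma, 3 libraries per genotype. Filled blue points were called lower (17 left, 13 right), filled red points were called higher (1 in each panel) and open points were not called.

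Each library can be read on its own. The median log2 difference of the members from the control mean was -0.11 in homozygote replicate 1, -0.28 in replicate 2 and -0.38 in replicate 3, while it lay between -0.05 and 0.08 in the controls and between -0.10 and 0.05 in the heterozygotes. The control mean comes from the control libraries themselves, so their differences and counts lie around it by construction. The members stood low in each homozygote library, least so in replicate 1, which was close to heterozygote replicate 3. In the 3 homozygote libraries 39, 44 and 42 members lay below the control mean, against 36, 39 and 18 in the controls and 23, 26 and 37 in the heterozygotes, so by this count homozygote replicate 1 equaled control replicate 2.

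Guidance genes are long, and change followed length in these libraries. Their median exonic length was 6172 bases against 3669 for all genes, and 35 of the 58 were in the 3 longest of 10 classes into which all genes were divided by length. The median log2 fold change of all genes against controls ran from 0.17 in the shortest class to -0.16 in the longest. In the 3 longest classes 16.1% of all genes were called lower and 3.07% higher, and of the 35 members there 15 fell and 1 rose. When the trend with length was removed in each library, 11 members were called lower and 2 higher against controls, with 10.8% of all genes called and 5.3% called lower, and the median of the members was -0.18. Against heterozygotes 11 were then lower and 1 higher, with 11.3% of all genes called.

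**Figure D2:**
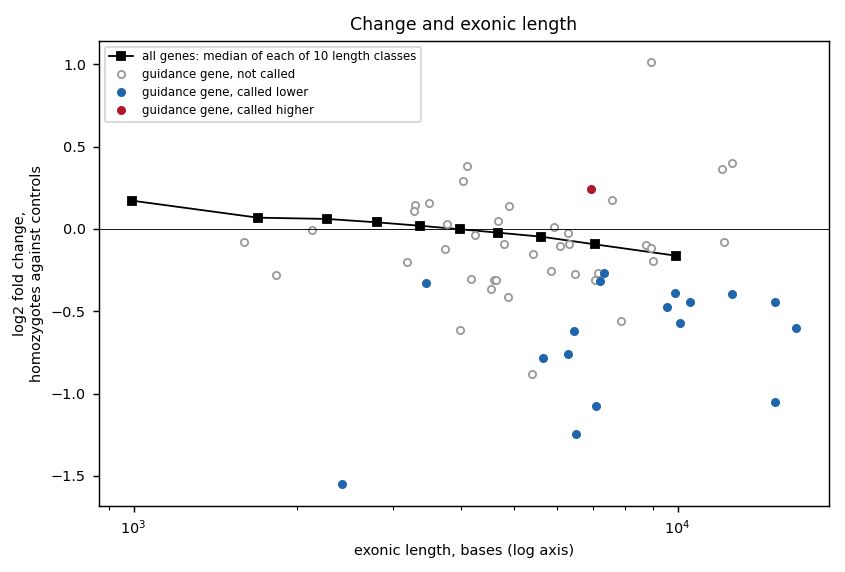
Log2 fold change in homozygotes against controls (vertical axis) by exonic length in bases (log axis) for the 58 guidance genes, with the median of all genes in each of 10 length classes as black squares. The squares fall from 0.17 to -0.16. The blue points, the members called lower, lie below the line that joins them, which follows from their selection and is no comparison with the trend.

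*Slit2* had the smallest adjusted p of all guidance genes in both comparisons. Slits are secreted ligands that repel cells bearing Robo receptors. The *Slit2* gene lies at chr5:48374394-48697521 on the plus strand of NCBIM37. Its value was 74.4, 78.5 and 89.2 in control replicates 1, 2 and 3, 72.7, 85.8 and 74.9 in the heterozygotes and 41.9, 42.4 and 32.5 in the homozygotes. All homozygote libraries were low and neither other group reached down to them. *Slit2* fell to 48.2% of the control mean, with a log2 fold change of -1.05 ± 0.11 (SE, 95% interval -1.28 to -0.82, limma adjusted p = 4.04e-05). Against heterozygotes the change was -0.997 (limma adjusted p = 8.58e-05), and with the trend with length removed it was -0.81 against controls.

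*Slit3*, the other Slit measured, had values of 39.3, 39.3 and 53.6 in controls, 42.3, 48.8 and 50.9 in heterozygotes and 47.1, 41.9 and 33.9 in homozygotes. The groups overlapped, and the log2 fold change against controls was -0.10 with a 95% interval from -0.39 to 0.19 (limma adjusted p = 0.669). The ratio of *Slit2* to *Slit3* within each library, a measure chosen after the values were seen, was 1.89, 2.00 and 1.67 in controls, 1.72, 1.76 and 1.47 in heterozygotes and 0.889, 1.01 and 0.958 in homozygotes. An exact two-sided permutation test of the ratio gave p = 0.1 against either group, the smallest p that 3 against 3 libraries allow. Since the ratio was also chosen for its pattern, it is given as a description and nothing is drawn from that p.

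Among the Robo receptors, which bind Slits, *Robo1* and *Robo2* fell and *Robo4* was not called. *Robo1* stood at 57.0, 50.8 and 63.7 in controls, 56.3, 53.0 and 51.8 in heterozygotes and 42.4, 40.9 and 39.4 in homozygotes. Homozygotes lay below every other library, with a log2 fold change of -0.47 ± 0.08 (SE) against controls (limma adjusted p = 0.00245) and -0.39 against heterozygotes (limma adjusted p = 0.00855). *Robo2*, whose start lies 1748.7 kb from that of *Robo1* on chromosome 16, stood at 23.8, 19.4 and 24.0 in controls, 22.5, 19.6 and 15.6 in heterozygotes and 12.8, 14.0 and 17.2 in homozygotes. The homozygotes lay below the controls and overlapped the heterozygotes. The change of *Robo2* was -0.60 ± 0.15 (SE) against controls (limma adjusted p = 0.0162) and -0.38 against heterozygotes (limma adjusted p = 0.115). Its call against controls was lost when control replicate 1, control replicate 3 or homozygote replicate 1 was left out, with limma adjusted p from 0.053 to 0.072, and with the trend with length removed, at -0.34 (limma adjusted p = 0.211). *Robo4*, the endothelial receptor of the family, was low, with 2.85, 3.81 and 2.12 in controls and 5.34, 3.13 and 3.47 in homozygotes (log2 fold change 0.38, 95% interval -0.19 to 0.96).

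**Figure D3:**
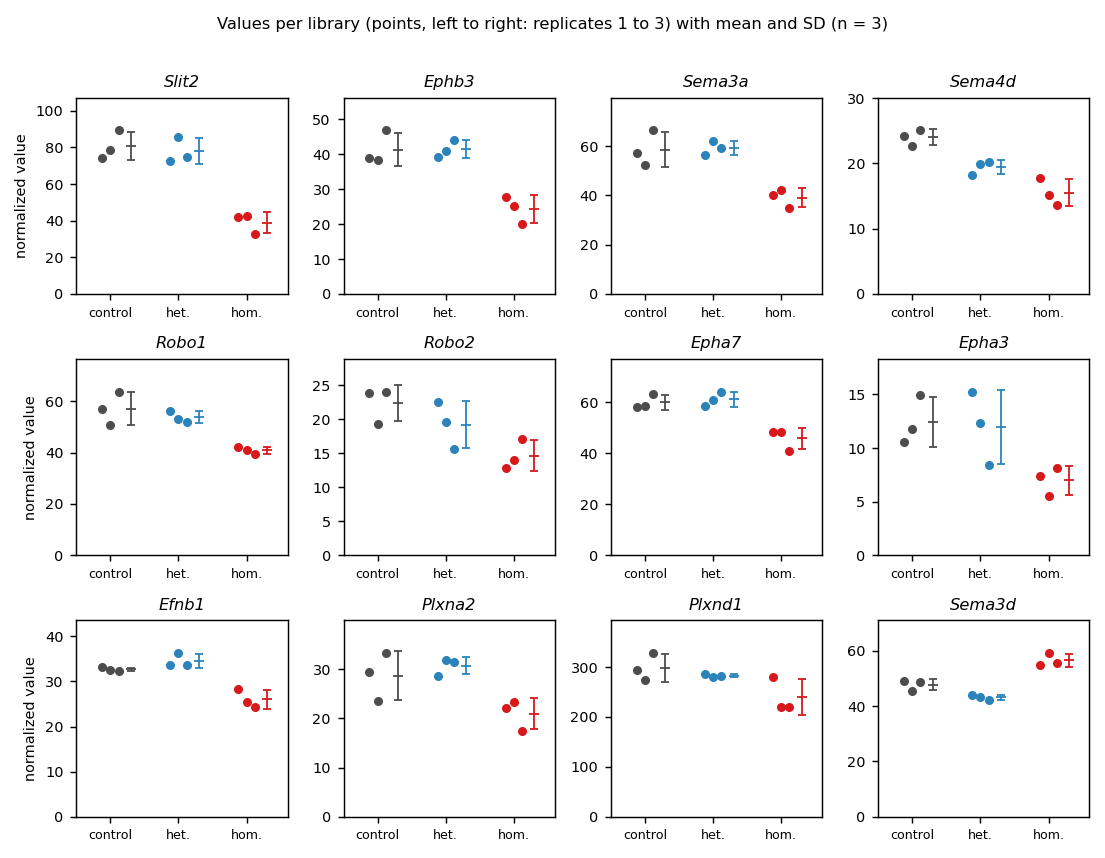
Normalized values (vertical axes from 0) of 12 guidance genes in each library, with the mean and SD of 3 libraries beside the points of each genotype. *Slit2* shows the widest gap, with homozygotes at 32.5 to 42.4 and all other libraries at 72.7 to 89.2, and *Sema3d* is the gene with homozygotes on top, at 54.8 to 59.2.

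CTCF binding was not measured in the data used here, so the promoters were described only by their letters. RefSeq promoters on GRCm38.p6, each 300 bases with 250 before and 50 after the start, were found for 49 of the 57 symbols, and for 18 of the 20 symbols called in either comparison. They were searched on both strands for the letters CCANNAGNNGGC, a stretch found in the core of the CTCF motif, with no other motif searched. Of all 32851 promoters 2.43% held these letters, as did 2 of the 64 promoters of guidance genes, those of *Epha1* and *Plxnd1*. Among the 25 promoters of called members *Plxnd1* alone held them. Its promoter is printed for that reason, with the match in capitals. It is followed by the promoters of *Slit2*, the member with the smallest adjusted p, and of *Sema3d*, the member called higher, neither of which held the letters.
Plxnd1 (chr6:115994956-115995255, minus strand): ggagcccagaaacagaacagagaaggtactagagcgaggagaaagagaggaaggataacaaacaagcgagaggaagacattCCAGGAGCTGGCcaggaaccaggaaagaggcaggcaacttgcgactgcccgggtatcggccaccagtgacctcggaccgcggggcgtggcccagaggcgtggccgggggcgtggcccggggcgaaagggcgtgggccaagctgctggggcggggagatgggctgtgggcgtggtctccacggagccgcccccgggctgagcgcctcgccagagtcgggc
Slit2 (chr5:47982905-47983204, plus strand): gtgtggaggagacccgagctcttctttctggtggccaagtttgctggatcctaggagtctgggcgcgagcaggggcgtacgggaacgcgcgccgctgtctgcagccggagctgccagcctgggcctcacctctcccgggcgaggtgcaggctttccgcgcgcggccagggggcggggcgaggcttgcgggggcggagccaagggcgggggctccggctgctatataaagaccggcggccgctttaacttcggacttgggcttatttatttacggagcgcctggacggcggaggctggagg
Sema3d (chr5:12382916-12383215, plus strand): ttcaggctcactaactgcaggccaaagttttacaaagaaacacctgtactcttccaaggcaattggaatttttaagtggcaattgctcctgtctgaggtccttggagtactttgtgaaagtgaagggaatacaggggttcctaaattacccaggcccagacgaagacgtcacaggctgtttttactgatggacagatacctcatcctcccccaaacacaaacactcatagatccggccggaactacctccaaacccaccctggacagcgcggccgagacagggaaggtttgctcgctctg
The match in *Plxnd1*, CCAGGAGCTGGC, begins 169 bases before the start. The *Slit2* promoter held 30 CpG dinucleotides and was 68.0% G or C, and the *Plxnd1* promoter held 23 and was 67.0% G or C. The *Sema3d* promoter, with 8 CpG dinucleotides and 49.7% G or C, was near the medians of all promoters, 7 and 52.7%.

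Of the 19 semaphorins 4 fell and 1 rose against controls, and 2 fell and 1 rose against heterozygotes. The shares of all genes called were 15.2% and 13.6%, and the second count of semaphorins is near its share. The secreted *Sema3a*, a repellent of axons and neural crest cells, and *Sema3d*, which guides endothelial cells and the patterning of pulmonary veins, went in opposite directions. Their starts lie 742.4 kb apart on chromosome 5, *Sema3a* at chr5:13125593-13602565 and *Sema3d* at chr5:12383166-12588943 (NCBIM37). *Sema3a* had values of 57.2, 52.2 and 66.4 in controls, 56.3, 62.0 and 59.2 in heterozygotes and 40.3, 42.2 and 34.9 in homozygotes. All homozygote libraries were lower than all others, and the change was -0.57 ± 0.10 (SE) against controls (limma adjusted p = 0.00174) and -0.59 against heterozygotes (limma adjusted p = 0.00161).

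*Sema3d* stood at 49.1, 45.4 and 48.8 in controls, 43.9, 43.3 and 42.3 in heterozygotes and 54.8, 59.2 and 55.5 in homozygotes. Here the homozygotes were above every other library and the heterozygotes below every control. The rise was 0.24 ± 0.07 (SE) against controls (limma adjusted p = 0.0283) and 0.38 against heterozygotes (limma adjusted p = 0.00273). Against controls the call was lost without any 1 control or without homozygote replicate 2 or 3 (log2 fold change 0.21 to 0.26, limma adjusted p from 0.052 to 0.0992), whereas the call against heterozygotes held without each library in turn. The ratio of *Sema3a* to *Sema3d*, again chosen after the values were seen, was 1.17, 1.15 and 1.36 in controls, 1.28, 1.43 and 1.40 in heterozygotes and 0.735, 0.714 and 0.629 in homozygotes. Its exact permutation p was likewise 0.1 against either group, and it too is given as a description only.

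*Sema4d*, a transmembrane ligand of plexin-B1, stood at 24.3, 22.7 and 25.1 in controls, 18.2, 20.0 and 20.2 in heterozygotes and 17.8, 15.1 and 13.6 in homozygotes. The groups were stepped without overlap. Its change was -0.62 ± 0.11 (SE) against controls (limma adjusted p = 0.00278) and -0.32 against heterozygotes, which was not called (limma adjusted p = 0.0729). *Sema6d*, a transmembrane ligand of plexin-A1 in the heart wall, was the semaphorin with the highest level per kilobase of exon, 8.25 in controls. It stood at 85.3, 77.3 and 98.7 in controls, 74.4, 78.9 and 76.5 in heterozygotes and 63.2, 73.2 and 55.3 in homozygotes. *Sema6d* fell by 0.45 on the log2 scale against controls (limma adjusted p = 0.0105), a call lost without control replicate 3 (limma adjusted p = 0.0553). With the trend with length removed its change against controls was -0.28 (limma adjusted p = 0.0436). *Sema5b*, a transmembrane semaphorin with thrombospondin repeats, was scarce, with 3.32, 2.59 and 1.83 in controls, 3.09, 3.09 and 2.65 in heterozygotes and 1.25, 0.931 and 0.675 in homozygotes. Only 5 to 7 reads lay behind each of the homozygote values. Its change was -1.07 ± 0.26 (SE) against controls (limma adjusted p = 0.0154), lost without control replicate 1 or homozygote replicate 3 (limma adjusted p 0.0663 and 0.0602), and -1.26 against heterozygotes (limma adjusted p = 0.00761).

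The other 14 semaphorins were not called in either comparison. *Sema3c*, the outflow tract ligand, had values of 54.9, 59.2 and 52.8 in controls and 46.0, 49.0 and 43.4 in homozygotes. These did not overlap, yet the log2 fold change of -0.27 (95% interval -0.48 to -0.06) missed the threshold (limma adjusted p = 0.0808). Leaving out heterozygote replicate 3 brought it past the threshold, at a limma adjusted p of 0.0285. *Sema3f* and *Sema3g*, which signal mainly through neuropilin-2, stood at 14.8 to 17.0 and 3.73 to 7.62 in controls and at 15.7 to 21.9 and 2.79 to 4.66 in homozygotes, and *Sema3e*, the ligand of plexin-D1, at 1.88 to 3.14 and 1.95 to 3.47.

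Every one of the 9 plexins, the receptors of semaphorins, had a log2 fold change below 0 against controls, and 5 of them fell, beside the 15.2% of all genes called. With the trend with length removed none of these 5 was called by limma against controls (adjusted p from 0.0781 to 0.27), and *Plxnb1* was at 0.02. Of the 5, *Plxnb3* was then still at -1.17, and the others lay between -0.17 and -0.23. *Plxnd1*, the endothelial plexin, was the highest of all guidance genes per kilobase of exon, at 41.5 in controls. Its values were 293, 274 and 328 in controls, 286, 280 and 282 in heterozygotes and 281, 220 and 219 in homozygotes. Homozygote replicate 1 lay within the controls and the other 2 below all other libraries. The change was -0.32 ± 0.09 (SE, limma adjusted p = 0.0301) against controls and -0.24 against heterozygotes (limma adjusted p = 0.092). The first call was lost without control replicate 1 or 3 or homozygote replicate 2 or 3 (limma adjusted p from 0.0585 to 0.134) and with the trend with length removed (limma adjusted p = 0.109). Without homozygote replicate 1 the change against heterozygotes was -0.36 and was called (limma adjusted p = 0.00787).

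*Plxna2*, a receptor for class 3 and class 6 semaphorins in cardiac neural crest, stood at 29.4, 23.4 and 33.3 in controls, 28.7, 31.9 and 31.5 in heterozygotes and 22.1, 23.3 and 17.3 in homozygotes. Homozygotes were below both other groups, by a narrow margin to control replicate 2. It fell by 0.44 on the log2 scale against controls (limma adjusted p = 0.0389) and by 0.55 against heterozygotes (limma adjusted p = 0.0158). The first call was lost without control replicate 1 or 3, heterozygote replicate 3 or homozygote replicate 1 or 3 (limma adjusted p from 0.0505 to 0.173), and the second without heterozygote replicate 2 or 3 or homozygote replicate 3 (limma adjusted p from 0.053 to 0.0694). With the trend with length removed *Plxna2* was at -0.20 against controls, which was not called (limma adjusted p = 0.27), and at -0.40 against heterozygotes, which was (limma adjusted p = 0.0291). *Plxna4*, which acts with neuropilins for class 3 ligands, had values of 104, 100 and 119 in controls, 77.1, 97.3 and 100 in heterozygotes and 81.0, 84.0 and 79.7 in homozygotes. The heterozygotes overlapped the homozygotes and came close to the lowest control. *Plxna4* fell by 0.39 against controls (limma adjusted p = 0.0132), a call lost without control replicate 3 (limma adjusted p = 0.0695) and with the trend with length removed (-0.19, limma adjusted p = 0.144). Its change against heterozygotes was -0.16 (limma adjusted p = 0.299), and without heterozygote replicate 1 it was -0.28 and was called (limma adjusted p = 0.0466).

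*Plxnb2*, a receptor for class 4 semaphorins, stood at 191, 188 and 207 in controls, 198, 212 and 194 in heterozygotes and 182, 162 and 145 in homozygotes. It fell by 0.27 against controls (limma adjusted p = 0.0323) and by 0.31 against heterozygotes (limma adjusted p = 0.0174). No library overlapped, but the call against controls was lost without any 1 control or without homozygote replicate 2 or 3 (limma adjusted p from 0.0505 to 0.132), and that against heterozygotes without heterozygote replicate 2 or homozygote replicate 3 (0.0677 and 0.0725). With the trend with length removed *Plxnb2* was at -0.17 against controls and not called (limma adjusted p = 0.145), and at -0.24 against heterozygotes, which was called (limma adjusted p = 0.0436). *Plxnb1*, the receptor of Sema4D, was called only against heterozygotes, with 67.2, 68.4 and 65.4 there and 63.9, 52.4 and 51.6 in homozygotes (-0.26, limma adjusted p = 0.0494). That call was lost without any single library other than homozygote replicate 1 (limma adjusted p from 0.0564 to 0.179) and with the trend with length removed (-0.17, limma adjusted p = 0.189). *Plxnb3* was near the limit of detection, with 4 to 19 reads in controls and 0 to 6 in homozygotes, and its call against controls (-1.24, limma adjusted p = 0.0487) was lost in 14 of 20 alternative analyses, among them 7 that left out 1 library each, any other than control replicate 1 or homozygote replicate 3 (limma adjusted p from 0.058 to 0.176). *Plxna1*, the receptor of Sema6D, stood at 68.6, 66.0 and 81.5 in controls and 66.4, 67.4 and 55.0 in homozygotes and was not called (-0.19, 95% interval -0.40 to 0.02). Against the heterozygotes, at 75.9, 84.7 and 73.0, its change was -0.31 and just missed the threshold (limma adjusted p = 0.0523), and it was called lower in 6 of 21 alternative analyses, among them that without control replicate 3 (limma adjusted p = 0.0354). Exons of *Plxna4* and *Plxnb1* share 110 and 210 bases with gene models on the opposite strand, *Gm13851* and *Gm7628*, whose reads cannot be told apart from theirs where strand was not recorded.

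**Figure D4:**
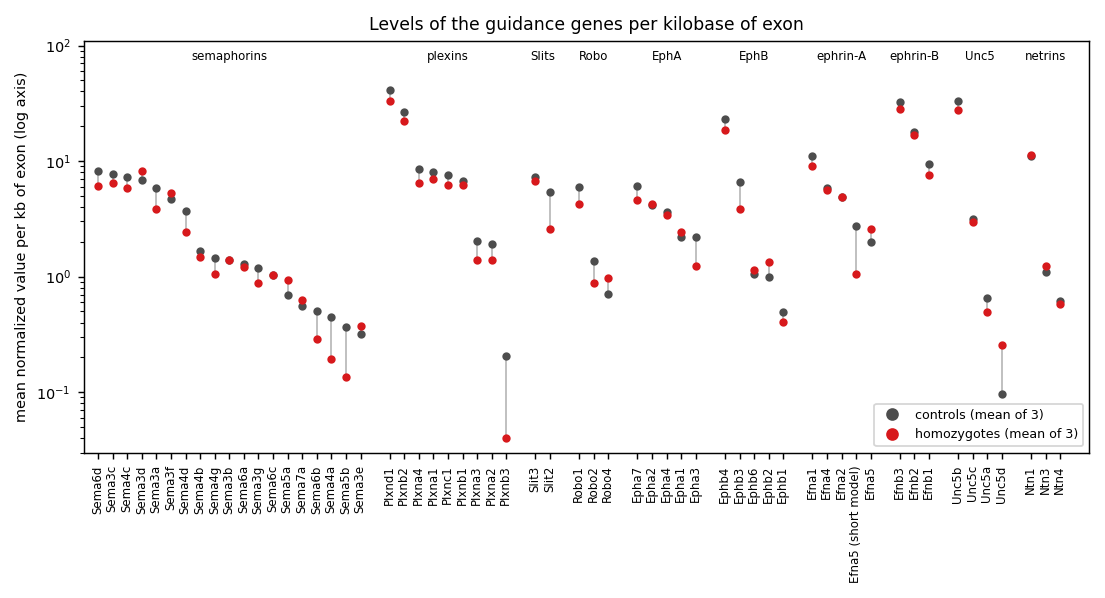
Mean normalized value per kilobase of exon (log axis) of each guidance gene in controls (gray) and homozygotes (red), 3 libraries each, in families ordered by level. Levels in controls run from 0.0969 for *Unc5d* to 41.5 for *Plxnd1*.

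Eph receptors are tyrosine kinases that bind membrane-held ephrins on neighboring cells, so that both cells receive a signal. Against controls 2 of 5 EphA and 1 of 5 EphB receptors fell, and the same counts were found against heterozygotes. With 15.2% and 13.6% of all genes called, 1 of 5 is near the share of all genes. *Ephb3*, which acts with *Ephb2* and *Ephb4* on ephrin-B ligands in vessels, stood at 38.9, 38.3 and 46.9 in controls, 39.3, 41.1 and 44.2 in heterozygotes and 27.8, 25.3 and 19.9 in homozygotes. Homozygotes were far below both groups, which overlapped each other. *Ephb3* fell to 58.9% of the control mean, by 0.76 ± 0.12 (SE) on the log2 scale (limma adjusted p = 0.00113), and by 0.77 against heterozygotes (limma adjusted p = 0.00117).

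*Epha7*, the EphA receptor with the highest level per kilobase of exon (6.06 in controls), stood at 58.1, 58.3 and 63.2 in controls, 58.3, 60.7 and 64.0 in heterozygotes and 48.3, 48.2 and 40.8 in homozygotes. Its change was -0.39 ± 0.08 (SE) against controls (limma adjusted p = 0.00589) and -0.41 against heterozygotes (limma adjusted p = 0.00429), with no overlap. Removal of the trend with length left *Epha7* at -0.24 against controls (limma adjusted p = 0.0386). *Epha3*, which is needed in the atrioventricular cushions, stood at 10.5, 11.7 and 15.0 in controls, 15.3, 12.3 and 8.42 in heterozygotes and 7.38, 5.50 and 8.15 in homozygotes. The lowest heterozygote library was just above the highest homozygote library. *Epha3* fell by 0.78 ± 0.21 (SE) against controls (limma adjusted p = 0.0239) and by 0.71 against heterozygotes (limma adjusted p = 0.0399). The first call was lost without control replicate 2 or 3 or homozygote replicate 2 (limma adjusted p from 0.0521 to 0.112), and the second without any 1 of 6 libraries, namely control replicate 2, heterozygote replicates 1 and 2 and each homozygote (0.051 to 0.155). With the trend with length removed the change against heterozygotes was -0.67, little different, though no longer called (limma adjusted p = 0.0597).

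*Ephb4*, the receptor of veins, was the EphB gene with the highest level per kilobase of exon, 23.1 in controls. It stood at 96.4, 107 and 118 in controls, 111, 104 and 92.8 in heterozygotes and 99.8, 82.5 and 77.0 in homozygotes, and the log2 fold change against controls of -0.31 just missed the threshold (limma adjusted p = 0.053). Homozygote replicate 1 was within the controls. Without it the change was -0.42 against controls (limma adjusted p = 0.0152) and -0.36 against heterozygotes (limma adjusted p = 0.0295), and without control replicate 1 it was -0.38 (limma adjusted p = 0.036). *Ephb2* lay on the other side, with 13.0, 12.9 and 11.6 in controls, 16.6, 19.4 and 14.9 in heterozygotes and 20.1, 15.7 and 14.5 in homozygotes. Both groups with the driver lay above the controls and overlapped each other, and neither difference was called (0.40, limma adjusted p = 0.0689 for homozygotes and 0.42, limma adjusted p = 0.489 for heterozygotes). With the trend with length removed *Ephb2* was called higher in homozygotes than in controls (0.60, limma adjusted p = 0.0168). *Epha2*, a receptor of ephrin-A1, stood at 18.2 to 20.2 in controls and 18.7 to 21.2 in homozygotes.

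Among the ephrin-B ligands, which span the membrane, *Efnb1* fell in both comparisons, in which 15.2% and 13.6% of all genes were called. It stood at 33.1, 32.5 and 32.4 in controls, 33.6, 36.3 and 33.6 in heterozygotes and 28.3, 25.5 and 24.3 in homozygotes. Every homozygote library was below all others, with changes of -0.33 ± 0.08 (SE, limma adjusted p = 0.0181) and -0.40 (limma adjusted p = 0.00696). The call against controls was lost without control replicate 1 or 3 or homozygote replicate 3 (limma adjusted p from 0.0566 to 0.0756). *Efnb3*, the ephrin-B gene with the highest level per kilobase of exon (32.4 in controls), stood at 96.2, 101 and 112 in controls, 117, 127 and 118 in heterozygotes and 101, 96.0 and 73.8 in homozygotes. It was called lower only against heterozygotes (-0.43, limma adjusted p = 0.0137), a call lost without heterozygote replicate 2 (limma adjusted p = 0.0523), and its change against controls was -0.20 (limma adjusted p = 0.196). *Efnb2*, the ephrin of arteries, had overlapping values of 85.7, 83.8 and 86.0 in controls, 97.7, 78.1 and 82.0 in heterozygotes and 80.3, 88.3 and 72.3 in homozygotes, and a 95% interval of the change against controls from -0.28 to 0.10.

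The ephrin-A ligands are anchored by a lipid. Of their 5 models 1 was called in each comparison, near the 15.2% and 13.6% of all genes called. The only one was the short model of *Efna5*. This model (chr17:62953641-62956056, NCBIM37) lies within the span of the last exon of the long model on the same strand, so that reads from either cannot be told apart and its call is uncertain. The short model stood at 5.30, 6.86 and 7.53 in controls, 7.50, 6.24 and 4.73 in heterozygotes and 1.02, 5.67 and 0.946 in homozygotes, with homozygote replicate 2 among the controls. Its changes of -1.55 against controls (limma adjusted p = 0.0267) and -1.46 against heterozygotes (limma adjusted p = 0.0381) went with 0.29 for the long model against controls (limma adjusted p = 0.508). The first call was lost without control replicate 2 or 3 or homozygote replicate 1 or 3 (limma adjusted p from 0.0713 to 0.105), and the second without control replicate 2, any 1 heterozygote or homozygote replicate 1 or 3 (0.0531 to 0.148). The sum of both models was 14.6 ± 1.67 in controls, 14.3 ± 2.46 in heterozygotes and 13.0 ± 1.96 in homozygotes (SD, n = 3). *Efna1*, the ephrin-A gene with the highest level per kilobase of exon (11.0 in controls), stood at 17.6 to 22.2 in controls and 14.7 to 19.2 in homozygotes and was not called (-0.28, limma adjusted p = 0.167).

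None of the 4 Unc5 receptors and 3 netrins was called by limma, although 2 of the Unc5 receptors had an unadjusted p under 0.05 against controls, as did 29.6% of all genes. *Unc5b*, the netrin receptor of endothelial cells, came next to *Plxnd1* in level per kilobase of exon, at 33.0 in controls. It stood at 182, 193 and 204 in controls and 179, 164 and 144 in homozygotes, with no overlap and a change of -0.25 (95% interval -0.44 to -0.06, limma adjusted p = 0.0684). Without homozygote replicate 1 it was called (-0.33, limma adjusted p = 0.0338). *Ntn1*, a secreted laminin-like ligand, varied most in homozygotes, with 65.5, 61.0 and 83.4 in controls, 70.2, 75.2 and 77.4 in heterozygotes and 87.5, 83.7 and 43.0 in homozygotes. Homozygote replicate 3 was the lowest of all libraries and the other 2 homozygotes the highest, and the 95% interval of the change against controls ran from -0.46 to 0.41. *Ntn4*, a netrin of basement membranes, stood at 2.19 to 2.50 in controls and 1.27 to 2.66 in homozygotes.

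No guidance gene was called between heterozygotes and controls by limma, a comparison in which 0.143% of all genes were called, and edgeR's quasi-likelihood test on the recovered reads called none either. At an unadjusted p under 0.05 there were 6 members, or 10.3%, against 7.37% of all genes, namely *Sema4d* (-0.30), *Plxna4* (-0.23), *Plxnc1* (-0.25), *Ephb2* (0.42), *Efnb3* (0.22) and *Ntn3* (0.43). The median log2 fold change of the members was 0.01 in this comparison. *Slit2* (-0.05) and *Robo1* (-0.08) had values in heterozygotes that overlapped the controls, whereas for *Sema4d* and *Sema3d* every heterozygote library lay below every control.

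Genes that work with these ligands and receptors were counted as a list of 65 partners, of which 62 were measured. Against controls 17 fell and 2 rose, and against heterozygotes 10 fell and 2 rose, beside the 15.2% and 13.6% of all genes called. After removal of the trend with length 10 were lower and 3 higher against controls, and 8 lower and 4 higher against heterozygotes, with 10.8% and 11.3% of all genes called. Without control replicate 3 the 19 calls against controls became 9, with 7.49% of all genes called. Against heterozygotes the 12 calls became 6 without heterozygote replicate 3, near the 8.73% of all genes called then, and 7 without homozygote replicate 3, with 7.3% of all genes called. Of the co-receptors, 3 of 10 fell against controls. *Flrt3*, a membrane protein that binds Unc5 and Robo receptors, went from 50.5, 50.1 and 52.3 in controls to 34.4, 37.5 and 30.0 in homozygotes (-0.58, limma adjusted p = 0.00117). *L1cam*, which acts with neuropilin-1, fell by 0.80 (limma adjusted p = 0.0174), and *Itgb1*, an integrin subunit to which Sema7A binds, by 0.32 (limma adjusted p = 0.00638). The neuropilins that bind class 3 semaphorins were not called, with *Nrp1* at 235, 229 and 249 in controls and 245, 237 and 209 in homozygotes (-0.05, limma adjusted p = 0.677) and *Nrp2* at 0.19 (limma adjusted p = 0.397). The netrin receptor *Neo1* had a change of -0.04 (limma adjusted p = 0.783).

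Among the effectors of plexins, 5 of 21 fell against controls and 2 rose. *Farp1*, an exchange factor that binds plexin-A4, stood at 113, 110 and 110 in controls and 75.1, 71.3 and 73.0 in homozygotes (-0.60, limma adjusted p = 2.33e-05). *Dpysl3*, a collapsin response mediator that binds the cytoskeleton, fell by 0.56 (limma adjusted p = 0.000138), while its relative *Dpysl5* rose by 0.82 (limma adjusted p = 0.00197). The other calls were *Mical2* (-0.20) and *Mical3* (-0.48), which oxidize actin, the exchange factor *Arhgef12* (-0.25) and the small GTPase *Rras2* (0.23). Of the effectors of Robo and netrin receptors, 5 of 16 fell. *Gpc1*, a heparan sulfate proteoglycan that binds Slit, stood at 62.9, 67.5 and 69.5 in controls and 43.0, 33.4 and 34.7 in homozygotes (-0.85, limma adjusted p = 0.000673). *Enah*, which lengthens actin filaments, fell by 0.54 (limma adjusted p = 9.3e-05), and *Srgap1*, a GTPase activating protein recruited by Robo1, by 0.54 (limma adjusted p = 0.00999). Smaller falls were called for the kinase *Abl2* (-0.29) and the exchange factor *Trio* (-0.33). Of the effectors of Eph receptors 2 of 10 fell, the scaffold *Grip1* (-0.37) and the GTPase activating protein *Rasa1* (-0.24), a count near the 15.2% of all genes called. Among the partners named, the calls of *L1cam*, *Mical2*, *Mical3*, *Rras2*, *Arhgef12*, *Abl2*, *Trio*, *Grip1* and *Rasa1* against controls were lost without control replicate 3 (limma adjusted p from 0.0609 to 0.163). All of these but *Rras2* were also lost without at least 1 other control or homozygote library. Removal of the trend with length ended the calls of *Mical2*, *Rras2*, *Arhgef12*, *Srgap1*, *Abl2*, *Trio*, *Grip1* and *Rasa1* (limma adjusted p from 0.0538 to 0.863). Those of *Flrt3*, *Itgb1*, *Farp1*, *Dpysl3*, *Dpysl5*, *Gpc1* and *Enah* were kept with the trend removed and without each library in turn.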

How the data were processed

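RNA-seq libraries were analyzed from control, heterozygous and homozygous hearts at E10.5, with 3 libraries per genotype. The submitters' processing notes name CASAVA 1.8, cutadapt, RSEM, Bowtie2 and limma, and the build NCBIM37. The strand setting of the counting is not given in the sources used here. The authors deposited normalized signal values in a single table. Each signal value equaled a whole read count plus 0.5 (100% of values, within 0.001 of a whole read), which the authors had scaled to library totals times edgeR's TMM factors. Each of the 14011 genes reached 1 in 3 or more libraries. Totals of 4294537 to 11629365 reads limit the precision of low genes. Control columns are named Het in the table and heterozygous columns DH, and replicate numbers are those that end the column names.

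Values were analyzed as log2(value + 0.5), which understates changes of low genes. The 9 libraries were fitted together with limma 3.58.1 in R 4.3.3, with a mean-variance trend, p-values were adjusted by Benjamini-Hochberg over the 14011 genes, and an adjusted p under 0.05 counted as a call. Exact permutation tests compared 2 ratios of members, and 3 against 3 libraries cannot go under 0.10. GENCODE M1 gave names, coordinates and exonic lengths (13987 genes placed), and promoters came from RefSeq on GRCm38.p6. Named were members called in any comparison, the highest member per kilobase of each family in controls, members with textbook roles in heart or vessels and called partner genes. *Nrp1*, *Nrp2*, *Neo1*, *Plxnc1* and *Ntn3* were added after their values were seen. The members, lists and markers were chosen with earlier results of these data known. Alternatives were other pseudocounts (0.1, 1 and none), a filter at a mean of 5, limma without the trend, quantile normalization, fits limited to both groups in question, voom and edgeR 4.0.16 on recovered reads, removal of the length trend by loess, adjusted p under 0.01, a replicate block and leaving out each library. The fit was also run on simulated counts with known changes of a single size, the same dispersion for all genes and no trend with length. That run checks the code and not the calls of smaller changes. CTCF binding and other assays were not analysed here.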

Additional observations from a re-analysis of the deposited data

How the results depend on the processing

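Against controls the count of 18 guidance genes became 8 without the mean-variance trend and 6 at adjusted p under 0.01. With 1 library left out it was 7 to 19 (7 without control replicate 3), and such counts can hold members outside the 18. Against heterozygotes the count of 14 became 8, 8 and 8 to 16 (8 without heterozygote replicate 2, 9 without homozygote replicate 3). The 19 partner genes called against controls became 11, 9 and 9 to 19 (9 without control replicate 3), and the 12 called against heterozygotes became 7, 6 and 6 to 13 (6 without heterozygote replicate 3, 7 without homozygote replicate 3). With 1 library left out, 7.49% to 14.9% of all genes were called against controls and 7.3% to 13.3% against heterozygotes. The shares of all genes called without the mean-variance trend or at adjusted p under 0.01 are not given here. Those drops are therefore not read as particular to these genes. The other alternatives kept each count within 1.5 times, and the cause of these losses was not tested. Calls against controls were kept in every alternative for 6 genes, *Slit2*, *Ephb3*, *Sema3a*, *Sema4d*, *Robo1* and *Epha7*. Calls against heterozygotes were kept in every alternative that tested the gene for 8 genes, *Slit2*, *Ephb3*, *Sema3a*, *Robo1*, *Epha7*, *Efnb1*, *Sema3d* and *Sema5b*. No called direction reversed.

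Deviations of same-numbered libraries had correlations from -0.04 to 0.09. These values do not show pairing by number, and with 3 libraries per group they cannot exclude it. With a replicate block by column number, 17 guidance genes were called against controls, 12 against heterozygotes and 0 between heterozygotes and controls, and 17, 10 and 0 partner genes. *Plxnb3*, *Sema5b* and *Unc5d* rested on few reads per library.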

Other observations

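Members outside the rule for named genes gave further values against controls. *Plxna3*, a receptor for class 3 semaphorins, had values of 14.0, 16.8 and 17.5 in controls and 11.0, 13.6 and 8.24 in homozygotes, which do not overlap (log2 fold change -0.56, limma adjusted p = 0.0536). *Sema4c*, a transmembrane ligand of plexin-B2, stood at 35.2, 30.9 and 34.1 in controls and 30.5, 24.8 and 25.4 in homozygotes (-0.31, limma adjusted p = 0.0589). Neither passed the threshold, and both were picked after their values were seen. *Unc5d*, an Unc5 receptor with 5 to 8 reads in controls and 10 to 22 in homozygotes, had the highest positive log2 fold change of the members, 1.02 (limma adjusted p = 0.11).

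Among members that lie close together, *Sema3e* lies 899.7 kb from *Sema3a* by their starts and was not called, with a log2 fold change of 0.18 against controls beside -0.57. *Efna1* and *Efna4*, 56.9 kb apart on chromosome 3, had -0.28 and -0.08 and neither was called, while *Robo1* and *Robo2* both fell. These values are given as a description, and no test of neighboring genes was made.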
